A study of Mus musculus with 6 samples.

Results

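Long intergenic noncoding RNAs (lincRNAs) are transcripts without a known protein product whose genes lie outside protein-coding genes. The 169 lincRNAs described here are the genes that GENCODE M21 classes as lincRNA and whose mean over the 6 libraries of the study reached 1 CPM (reads per 1000000 reads counted on genes). They were chosen from 5614 lincRNA genes among the 55401 genes in the count tables, of which 1300 lincRNA genes had at least 1 read. Since the mean over both groups chose them, their being expressed is not a result. Of the 169, 147 reached a mean of 1 CPM in both groups, 17 reached it in the control group alone and 5 in the knockout group alone, and members of these last sets had to differ in level to enter. The 3 lincRNAs nearest the threshold were Gm38948 (mean 1.005 CPM), Gm44037 (1.007 CPM) and Gm7967 (1.032 CPM) inside it, and Ino80dos (0.988 CPM), Gm26583 (0.982 CPM) and Gm49201 (0.978 CPM) outside it. All 169 passed the filter on low counts, as did 242 lincRNA genes in all and 13364 genes of every class.

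RNA was sequenced from naive CD4+ T cells that had been taken from mouse spleen with magnetic beads and stimulated through CD3 and CD28 for 24 h. The control group (CON, genotype WT, 3 libraries) was compared with a conditional knockout group (CKO, 3 libraries) of Satb1 flox/flox CD4-Cre mice, in which Cre driven by Cd4 regulatory sequences acts on loxP-flanked Satb1 in cells of the T lineage. Nothing in the labels tells if Cre or floxed alleles were also present in the control mice, so effects of Cre and of Satb1 loss cannot be told apart. No age, sex or strain is given. The labels also do not say that libraries came from separate mice, so p-values measure the spread between these libraries, which may be technical.

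LincRNAs act in several ways: some are scaffolds of nuclear bodies, some bind microRNAs or RNA-binding proteins in the cytoplasm, and some are processed into microRNAs or small nucleolar RNAs. For others the act of transcription, or a regulatory DNA element inside the gene, affects a neighbouring gene in cis. Satb1 is a chromatin organiser of the T lineage that binds AT-rich DNA and shapes the contacts of its target loci.

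Of the 169 genes, 12 have a microRNA gene inside the gene body, or within 1 kb of it, on the same strand, and hold 23 microRNA genes in all. The mature sequences below come from the microRNA genes inside Mir155hg and Mir17hg, which rose in CKO, from the cluster just upstream of Gm26532, which rose too, and from Mir142hg, a haematopoietic host that did not pass the test. Gm26532 is not shown to be the precursor of that cluster. They are printed 5′ to 3′ from RefSeq (GRCm38.p6), with the seed, bases 2 to 8, in capitals, because the seed pairs with targets and shows which of them share a target sequence.

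mmu-miR-155-5p: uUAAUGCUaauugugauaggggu

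mmu-miR-17-5p: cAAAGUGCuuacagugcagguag

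mmu-miR-20a-5p: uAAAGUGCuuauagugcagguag

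mmu-miR-18a-5p: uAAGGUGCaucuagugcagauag

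mmu-miR-19a-3p: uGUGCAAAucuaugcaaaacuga

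mmu-miR-19b-3p: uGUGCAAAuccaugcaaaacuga

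mmu-miR-92a-3p: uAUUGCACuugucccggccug

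mmu-miR-23a-3p: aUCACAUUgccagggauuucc

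mmu-miR-27a-3p: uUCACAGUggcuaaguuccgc

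mmu-miR-24-3p: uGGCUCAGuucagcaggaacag

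mmu-miR-142a-3p: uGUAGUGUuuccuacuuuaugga

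The 6 products of Mir17hg fall into 4 seed groups: miR-17-5p and miR-20a-5p share AAAGUGC, miR-19a-3p and miR-19b-3p share GUGCAAA, and miR-18a-5p and miR-92a-3p each have their own. The libraries measured host transcripts, not mature microRNAs, and 19 of the 23 microRNA genes had 0 reads.

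Total gene reads ranged from 14895389 to 20266626 per library. Satb1 itself measured 712, 851 and 727 CPM in CON and 426, 546 and 462 CPM in CKO, a log2 fold change of -0.68 (SE 0.0866, adjusted p = 9.7e-05), with no overlap between groups; the labels do not give the floxed exons, and reads on the rest of the gene still count. Red cell markers, 7 of 7 of which were higher in CKO, summed to 24.9 to 31.4 CPM in CON and to 310, 1860 and 1610 CPM in CKO, and myeloid markers, 9 of 9 tested higher, summed to 40.9 to 47.1 and 99.2 to 181 CPM. B cell markers (2 of 5 tested higher) summed to 3.59 to 7.52 and 9.5 to 12.6 CPM, dendritic cell markers (1 of 2 higher) to 3.84 to 4.57 and 16.1 to 16.7 CPM, and NK cell markers (1 of 2 higher) to 5.07 to 7.72 and 10.6 to 17.2 CPM. T cell markers (1 higher and 4 lower of 7) summed to 2700 to 2780 and 1980 to 2040 CPM. Cd4 (701 ± 20 CPM in CON, 209 ± 4.06 CPM in CKO) and Cd28 (610 ± 28 and 341 ± 16.7 CPM) made up most of that difference. Cd3d was lower as well (163 ± 4.87 and 139 ± 4.8 CPM, log2 fold change -0.23, adjusted p = 0.00161), while Cd3e and Cd3g did not pass the test. Cd5 was higher (528 ± 45.9 and 669 ± 18.3 CPM). No marker on these lists was at 0 in every library. The part of other cell types in the results below was not tested except where a value is given.

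The lincRNAs fell more often than they rose in CKO. With edgeR (quasi-likelihood, Benjamini-Hochberg adjustment over all tested genes), 12 of the 169 were higher (7.1%, against 21.6% of all tested genes) and 43 were lower (25.4%, against 20.7%), so that 55 were called (32.5%, against 42.3% of all tested genes). Their median log2 fold change was -0.22 (quartiles -0.52 and 0.06), beside 0.00 over all tested genes, and 116 of the 169 had a negative value (68.6%, against 49.6%). A decrease of 2-fold or more was called for 16 lincRNAs (9.47%, against 2.93%) and an increase of that size for 6 (3.55%, against 5.24%). All 3 CKO libraries lay below all 3 CON libraries in 59 lincRNAs (34.9%, against 26.5% of all tested genes) and above them in 15 (8.88%, against 27%). Genes that reached 1 CPM in a single group had to differ, and they count toward these figures: 1810006J02Rik, Gm26532, Gm33104 and Gm47662 among the rises entered through CKO alone, and 7 of the called falls, among them Gm45155, Gm33994, Gm19951, 2310016D23Rik, Gm30373 and F730311O21Rik, through CON alone. For the 147 that reached 1 CPM in both groups, the median log2 fold change was -0.15, with 8 higher (5.44%) and 36 lower (24.5%), of which 2 rises (1.36%) and 9 falls (6.12%) were of 2-fold or more. In bulk RNA, fewer cells of a type and less RNA per cell cannot be told apart.

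**Figure D1:**
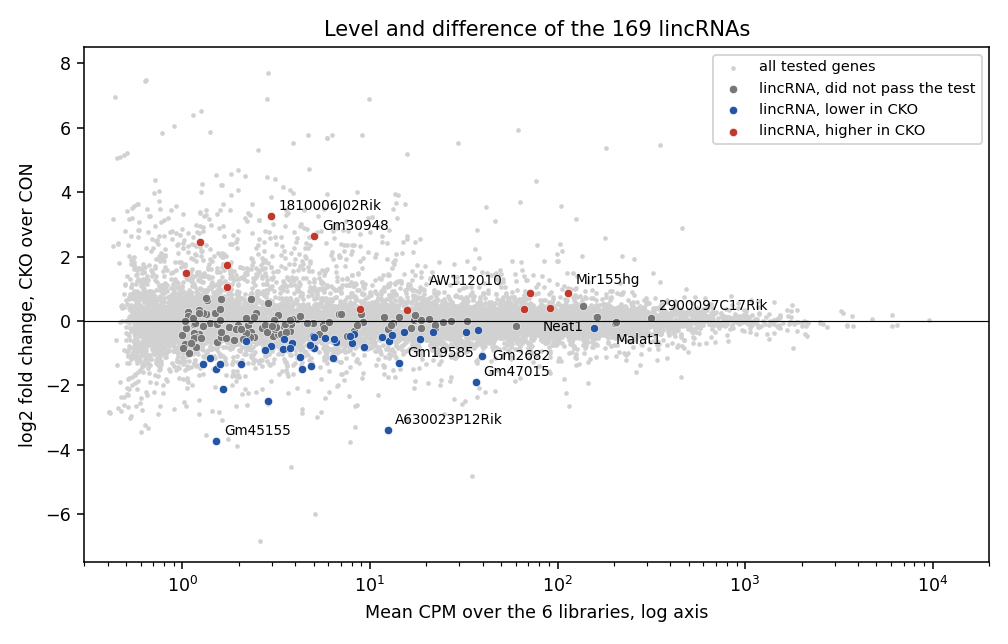
Each point is a gene, with its mean CPM over the 6 libraries on a log axis and its log2 fold change, CKO over CON, on the vertical axis; grey dots are all 13364 tested genes and larger points the 169 lincRNAs. The 43 lincRNAs called lower reach from -0.22 down to -3.72, and the 12 called higher from 0.35 up to 3.25.

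The other noncoding classes of the annotation leaned the same way. Antisense genes had a median of -0.22 (12 higher and 50 lower of 346), and TEC genes, which are provisional transcript models, a median of -0.23 (9 higher and 47 lower of 290). Processed transcripts had a median of -0.12 (11 higher and 27 lower of 165). Tested lincRNAs under the 1 CPM rule also had a median of -0.22 (5 higher and 9 lower of 73), whereas protein-coding genes had one of 0.01 (2750 higher and 2494 lower of 11267).

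The share of lincRNAs called differed between ranges of level. Between 1 and 3 CPM, 5 of 72 lincRNAs were higher and 11 lower (22.2% called, against 35.7% of coding genes at that level). Between 3 and 10 CPM, 2 of 55 were higher and 19 lower (38.2%, against 41.1%), and between 10 and 100 CPM, 4 of 34 were higher and 12 lower (47.1%, against 46%). Of the 8 lincRNAs at 100 CPM or more, 1 was higher and 1 lower (25%, against 59.3%). Below 100 CPM, the share called lower was above that of coding genes in each range and the share called higher below it.

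**Figure D2:**
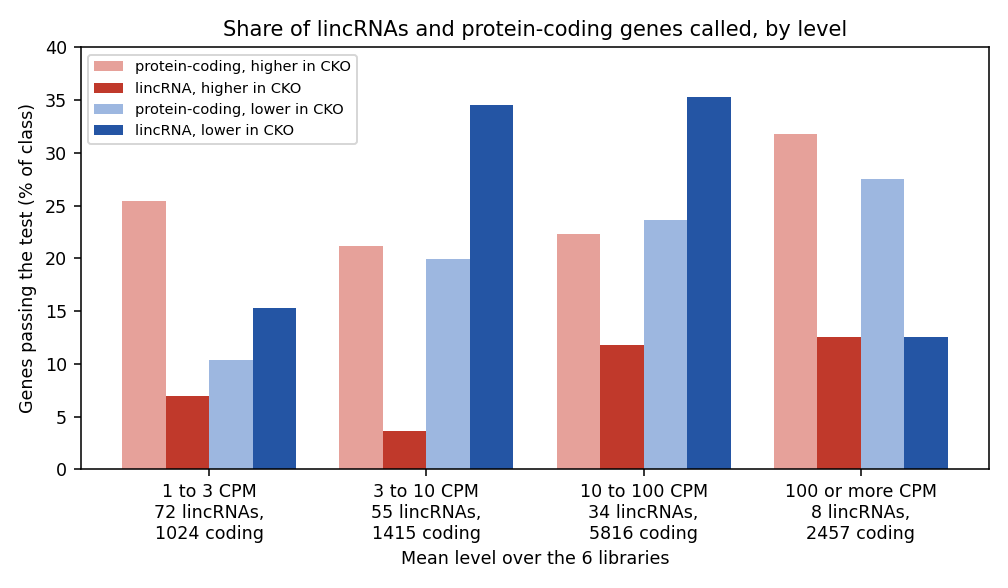
Bars give the percentage of genes passing the test in each direction, for lincRNAs and protein-coding genes in 4 ranges of mean CPM, with the number of genes under each range. From 3 to 10 CPM, 34.5% of lincRNAs and 19.9% of coding genes were lower in CKO, while 3.64% and 21.2% were higher.

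Reads on these lincRNAs made up 0.277 ± 0.00249% of gene reads in CON and 0.273 ± 0.000227% in CKO (SD, n = 3), with a two-sided exact permutation p of 0.1, the smallest that 3 libraries against 3 allow. Without the most abundant one, 2900097C17Rik, the shares were 0.247 ± 0.0038% and 0.241 ± 0.000533%. Reads that fell on no annotated gene moved further, from 9.34 ± 0.158% of reads in CON to 7.45 ± 0.149% in CKO (exact permutation p = 0.1). The groups did not overlap in any of these shares. Whether the lower share of reads outside genes bears on the lower noncoding levels was not tested.

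Compared per length, as RPKM (reads per kilobase of merged exons and per 1000000 gene reads), the lincRNAs had a median of 1.99 and ranged from 0.174 to 527, beside a median of 7.25 for tested protein-coding genes. Only 18 lincRNAs reached 10 RPKM. Gm10076 stood first at 527 RPKM over a single exon of 384 bases. It was followed by AW112010 (89.4 RPKM), Mir155hg (79.9 RPKM), Mir142hg (66.2 RPKM), 2900097C17Rik (64.4 RPKM), Snhg6 (52.7 RPKM), AU020206 (51.3 RPKM), Epb41l4aos (31 RPKM), Malat1 (29.3 RPKM) and AI504432 (29 RPKM). Of these 10, AW112010 and Mir155hg were called and the other 8 did not pass the test.

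Among the 12 with a microRNA gene inside or beside them, 3 rose and 1 fell (all tested genes: 21.6% higher and 20.7% lower), and 8 were not called. One of the rises, Gm26532, entered the set through CKO alone. Mir155hg (chr16:84703167-84715245, + strand), the precursor of miR-155, which promotes effector responses of T cells, measured 95.4, 70.4 and 78 CPM in CON and 149, 145 and 149 CPM in CKO. The groups did not overlap, with a log2 fold change of 0.86 (SE 0.0862, adjusted p = 1.63e-05). Mir17hg (chr14:115042879-115046727, + strand), the host of the miR-17~92 cluster that supports proliferation, measured 60.5, 53 and 58.7 CPM in CON and 78.2, 74 and 72.6 CPM in CKO. This smaller rise of 0.38 (SE 0.0586, adjusted p = 0.000341) was also free of overlap.

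Gm26532 (chr8:84208920-84209609, + strand) starts at the last bases of Mir24-2, downstream of Mir23a and Mir27a on the same strand, and has a single exon of 690 bases. It measured 0.246, 0.47 and 0.454 CPM in CON and 1.89, 2.06 and 2.35 CPM in CKO. All CKO libraries were above all CON libraries, on 19 reads in CON and 111 in CKO, at a log2 fold change of 2.45 (SE 0.325, adjusted p = 0.000124). The Mir23a hairpin gene itself had 2 reads in CON and 10 in CKO.

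The 1 of the 12 that fell was 6030443J06Rik, at -0.79 (adjusted p = 0.0178), and that call was lost without CON replicate 1 or without CKO replicate 3 (largest adjusted p = 0.0654). Mir142hg measured 18.6, 15.6 and 17.8 CPM in CON and 19.7, 19.9 and 15.2 CPM in CKO, so its groups overlapped, with a log2 fold change of 0.08 (SE 0.115, adjusted p = 0.62). Ftx and Snhg20 were among the other hosts that did not pass the test. From the wider list of small RNA hosts of any class, 17 were tested, 4 rose and 0 fell by edgeR's test (all tested genes: 21.6% higher and 20.7% lower). The 2 that are not among the lincRNAs here were Mir22hg (log2 fold change 2.35, adjusted p = 4.36e-06) and Snhg15 (0.48, adjusted p = 3.97e-05), which the annotation classes as processed transcripts.

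Nuclear lincRNAs did not move together. Neat1 (chr19:5824708-5845478, - strand), the scaffold of paraspeckles, measured 75.7, 80.3 and 81.7 CPM in CON and 99, 105 and 110 CPM in CKO. Its groups did not overlap, at a log2 fold change of 0.40 (SE 0.0517, adjusted p = 0.000104). Malat1, which resides in nuclear speckles and lies 22036 bases from Neat1 on the same strand, measured 239, 189 and 194 CPM in CON and 182, 189 and 236 CPM in CKO. These ranges nearly coincide, with a log2 fold change of -0.04 (SE 0.103, adjusted p = 0.805).

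On the whole list of nuclear and chromatin-acting lncRNAs, 9 were tested, 2 rose and 2 fell (all tested genes: 21.6% higher and 20.7% lower). Jpx and Ftx, transcripts of the X inactivation centre, had log2 fold changes of -0.34 (adjusted p = 0.239) and 0.11 (adjusted p = 0.464). Jpx passed the test only without CON replicate 3, at -0.55 (adjusted p = 0.0425). Xist, at 0.0525 to 0.286 CPM, was under the rule.

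Among cytoplasmic and growth-related lncRNAs, 6 were tested, 0 rose and 2 fell (all tested genes: 21.6% higher and 20.7% lower). Pvt1 (chr15:62037986-62378096, + strand), which lies downstream of Myc and is often amplified with it in tumours, measured 12.4, 11.7 and 11.2 CPM in CON and 7.04, 7.04 and 6.28 CPM in CKO. The groups were well apart, with a log2 fold change of -0.80 (SE 0.112, adjusted p = 0.000187). Myc, 47.6 kb away, was higher in CKO (632 ± 11.3 against 480 ± 40.3 CPM, log2 fold change 0.40, adjusted p = 0.000137).

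The other fall was a small one in an abundant transcript. 1700020I14Rik (Cyrano), which holds a site for miR-7, measured 169, 172 and 166 CPM in CON and 143, 145 and 146 CPM in CKO, a log2 fold change of -0.22 (SE 0.0389, adjusted p = 0.000882). 2900097C17Rik (Norad), which binds Pumilio proteins, measured 316, 310 and 292 CPM in CON and 325, 323 and 333 CPM in CKO. Although these groups did not overlap, its log2 fold change of 0.09 did not pass the test (adjusted p = 0.0932), and did so only without CON replicate 1 (adjusted p = 0.048).

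Snhg6 and Snhg12, hosts of small nucleolar RNAs, had log2 fold changes of -0.15 (adjusted p = 0.171) and 0.01 (adjusted p = 0.906). Snhg6 passed the test without CON replicate 3, at -0.24 (adjusted p = 0.0287), and when no filter on low counts was used (adjusted p = 0.0298). Mirt1 had one of 0.02 (adjusted p = 0.884).

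The largest rise was that of 1810006J02Rik (chr1:98131456-98144655, + strand), which measured 0.394, 0.537 and 0.778 CPM in CON and 5.72, 5.78 and 4.53 CPM in CKO. It was 9.51-fold higher (log2 fold change 3.25, SE 0.263, adjusted p = 3.1e-06), on 28 reads in CON and 285 in CKO. Its nearest coding gene is Pam, an enzyme that amidates peptide hormones, which is transcribed away from it 35.8 kb to one side and rose by less (log2 fold change 0.64, adjusted p = 0.00129). A lincRNA on the other side, Gm29461, was too low to be tested, with 4 reads in CON and 45 in CKO.

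Gm30948 (chr12:115262684-115287908, + strand) lies among the variable segments of the immunoglobulin heavy chain locus, between Ighv1-55 and Ighv8-8. It measured 1.58, 1.28 and 1.3 CPM in CON and 9.3, 8.98 and 7.85 CPM in CKO, with no overlap and a log2 fold change of 2.64 (SE 0.172, adjusted p = 5.87e-07). Ighv1-55 had 3 reads in CON and 24 in CKO, and Ighv8-8 had 0 and 44, so neither was tested. The annotation classes these segments apart from protein-coding genes. Gm30948 was therefore paired with the coding gene Zfp386, which was lower, and counts among the opposite pairs below. The summed B cell markers given above were 9.5 to 12.6 CPM in CKO against 3.59 to 7.52 CPM in CON, and their part in the level of Gm30948 was not tested.

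AW112010 (chr19:11047612-11055808, - strand), an interferon- and inflammation-induced transcript reported to encode a short protein, measured 34.1, 61 and 58.1 CPM in CON and 88.5, 99 and 90.5 CPM in CKO. CON replicate 1 was the lowest by far, and the groups did not overlap (log2 fold change 0.87, SE 0.16, adjusted p = 0.00117). Myeloid markers summed to 135, 99.2 and 181 CPM in CKO replicates 1, 2 and 3 and to 40.9 to 47.1 CPM in CON, and their part in the level of AW112010 was not tested.

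Some of the other rises depended on single libraries. Gm33104 (log2 fold change 1.73, SE 0.473, adjusted p = 0.0121) fell just short without CKO replicate 2 (adjusted p = 0.0502). Gm47662 (1.49, SE 0.429, adjusted p = 0.0157) fell short without CON replicate 1 (adjusted p = 0.0525) or CKO replicate 2 (adjusted p = 0.0541). Gm39556, at 1.06 (SE 0.27, adjusted p = 0.00818), was called without each library in turn.

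Gm28875 (log2 fold change 0.38, adjusted p = 0.0362) and Gm17300 (0.35, adjusted p = 0.0308) were each lost in 4 of the 6 fits that left out 1 library. Gm28875 was lost without CON replicate 2 or 3 and without CKO replicate 2 or 3 (largest adjusted p = 0.14). Gm17300 was lost without CON replicate 2 or 3 and without CKO replicate 1 or 2 (largest adjusted p = 0.125), and DESeq2 called neither.

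**Figure D3:**
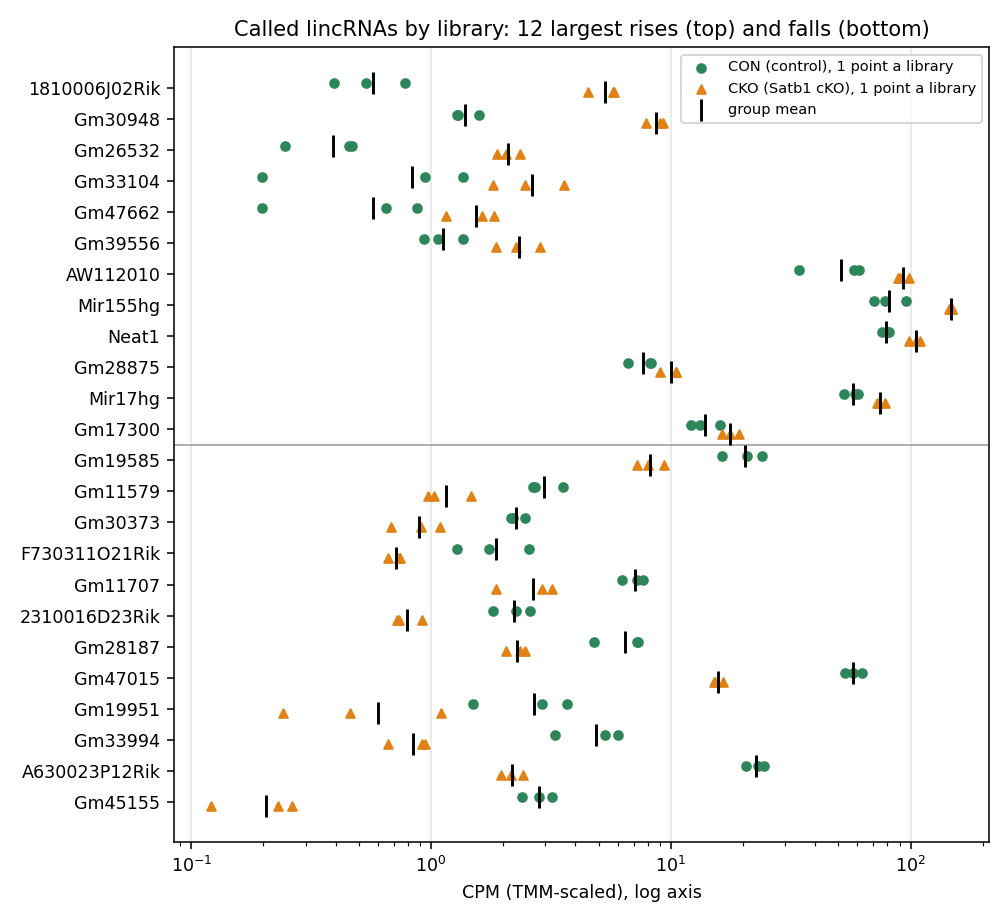
Points give the TMM-scaled CPM of each library on a log axis for all 12 lincRNAs called higher (upper block) and for the 12 largest falls (lower block); circles are CON, triangles CKO and vertical bars group means. These 24 were picked for groups that do not overlap; the widest gaps are those of 1810006J02Rik, A630023P12Rik and Gm45155.

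The strongest fall by its p-value was that of A630023P12Rik (chr5:110514923-110525980, + strand), with 20.6, 24.4 and 23.1 CPM in CON and 2.15, 1.95 and 2.41 CPM in CKO. It was 10.4-fold lower, with a log2 fold change of -3.38 (SE 0.13, adjusted p = 1.24e-08). Its nearest coding gene is Galnt9, a glycosyltransferase of O-glycosylation, which starts 18.4 kb downstream on the same strand. Galnt9 measured 3.35, 3.63 and 4.08 CPM in CON and 0.473, 0 and 0.241 CPM in CKO, and its log2 fold change of -3.87 (SE 0.463, adjusted p = 5.87e-05) is the lowest among the tested neighbours.

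The promoters of the strongest fall by its p-value and of the largest rise, which entered the set through CKO alone, are shown. Each runs from 250 bases before to 50 after the RefSeq start (GRCm38.p6, + strand): chr5:110514673-110514972 for A630023P12Rik, with capitals marking GGGCGG (a GC box), and chr1:98131217-98131516 for 1810006J02Rik, with capitals marking AATATT (an AT run).

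A630023P12Rik: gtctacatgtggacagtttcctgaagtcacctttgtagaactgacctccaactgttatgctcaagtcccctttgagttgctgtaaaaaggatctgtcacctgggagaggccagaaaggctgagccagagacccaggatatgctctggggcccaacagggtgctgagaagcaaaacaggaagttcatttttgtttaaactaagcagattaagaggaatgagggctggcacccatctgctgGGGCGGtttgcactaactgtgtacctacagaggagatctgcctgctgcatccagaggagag

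1810006J02Rik: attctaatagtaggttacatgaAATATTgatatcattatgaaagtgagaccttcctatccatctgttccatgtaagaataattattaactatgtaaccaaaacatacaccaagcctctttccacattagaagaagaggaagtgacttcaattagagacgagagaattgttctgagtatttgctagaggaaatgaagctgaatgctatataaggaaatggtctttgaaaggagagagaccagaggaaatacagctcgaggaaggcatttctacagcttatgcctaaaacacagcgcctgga

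Of the 169, 85 had a promoter in the RefSeq table by symbol, and in 66 its start lay within 500 bases of the GENCODE start. On both strands, 42.4% of these 66 held GGGCGG, against 35.6% of all 27025 promoters, and 7.58% held AATATT, against 7.15%. TATAAA was in 12.1% against 14.1%, CCGGAAGT (an ETS motif) in 4.55% against 3.93%, TGANTCA (AP-1) in 7.58% against 7.91% and TGTGGTT (RUNX) in 7.58% against 5.32%. No motif searched is contained in another. The 66 promoters had a median AT content of 46.7%, beside 47.3% over all promoters. The merged exons of all 169 had a median AT content of 53.5%, with medians of 55% in the 12 that rose and 52% in the 43 that fell.

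Gm45155 (chr7:118273292-118275363, - strand) fell by more on fewer reads, 144 in CON and 11 in CKO, with 3.2, 2.82 and 2.4 CPM against 0.263, 0.229 and 0.121 CPM. Its log2 fold change was -3.72 (SE 0.342, adjusted p = 8.1e-06). Smg1, a kinase of nonsense-mediated decay whose gene starts 29.6 kb from it, fell slightly (-0.27, adjusted p = 0.000123).

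Gm47015 (chr10:79412962-79417905, - strand) was the most abundant of the large falls, with 62.7, 53.2 and 57.4 CPM in CON and 15.2, 15.3 and 16.5 CPM in CKO. The 3 CKO values are close to each other and far under the CON values (log2 fold change -1.89, SE 0.0764, adjusted p = 1.69e-08). Its nearest coding gene, the vomeronasal receptor Vmn2r82, was too low to test. Gm2682 (chr15:60120540-60187408, - strand), at 46.1, 58 and 57.6 CPM in CON and 24.4, 27 and 25 CPM in CKO, likewise had no tested gene next to it (log2 fold change -1.08, SE 0.0907, adjusted p = 4.18e-06). It is named here after its values were seen.

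Gm33994 (log2 fold change -2.50, adjusted p = 4.5e-05), Gm19951 (-2.12, adjusted p = 0.0035), Gm28187 (-1.50, adjusted p = 0.000149) and Gm11707 (-1.41, adjusted p = 0.00018) were further large falls, and Zfp281, a transcription factor 45.4 kb from Gm33994, also fell (-0.66, adjusted p = 9.08e-05). Gm28187 lies 1410 kb from its nearest coding gene. The calls of the 12 largest falls were kept in each of the 10 refits with another test, scaling or filter, a block or 1 library left out.

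Some pairs of a lincRNA and its nearest coding gene fell together, and those described next are examples, with no test of what the neighbours share. Gm19585 (chr17:51986415-52163976, + strand) has Satb1 itself as its nearest coding gene, 153 kb away and transcribed in the opposite direction. It measured 16.4, 24 and 20.7 CPM in CON and 8.04, 9.33 and 7.24 CPM in CKO, a log2 fold change of -1.30 (SE 0.148, adjusted p = 3.92e-05), beside -0.68 for Satb1.

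Between Satb1 and Gm19585, provisional transcripts on the strand of Gm19585 were called lower as well: Gm37593 (-0.85, adjusted p = 0.0283), Gm37266 (-0.52, adjusted p = 0.0432) and Gm37176 (-0.67, adjusted p = 0.0338). They are named after their values were seen. Gm6934, which overlaps the Satb1 start, had a log2 fold change of -0.70 that missed the threshold (adjusted p = 0.176).

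Both lincRNAs downstream of Cd28, the costimulatory receptor that the stimulation engages, fell with it. 2310016D23Rik measured 2.26, 1.81 and 2.59 CPM in CON and 0.735, 0.916 and 0.724 CPM in CKO (log2 fold change -1.48, SE 0.271, adjusted p = 0.00112). Gm11579, whose gene body overlaps it on the other strand, measured 2.71, 3.56 and 2.66 CPM in CON and 1.47, 0.973 and 1.03 CPM in CKO (-1.34, SE 0.253, adjusted p = 0.00136). Cd28 was at 610 ± 28 CPM in CON and 341 ± 16.7 CPM in CKO, a difference of -0.84 on the log2 scale (adjusted p = 2.05e-07), and the groups did not overlap in any of the 3 genes.

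Near Thy1, a surface glycoprotein of T cells, Gm39323 (2.33 kb away) and Gm30373 (73.1 kb away) had log2 fold changes of -1.15 (adjusted p = 0.000114) and -1.35 (adjusted p = 0.00169), beside -0.24 for Thy1 (adjusted p = 0.00727). Gm11110, on the opposite strand of Tnfsf9, the ligand of 4-1BB, had -1.12 (adjusted p = 0.000172), beside -1.23 for Tnfsf9 (adjusted p = 0.00182). Gm39323 and Gm11110 are named after their values were seen. Other falls lay beside a gene that rose, as Gm14321 (-0.75, adjusted p = 0.00314) did with Cebpb, a transcription factor 87 kb away (0.34, adjusted p = 0.00466), and E230001N04Rik (-0.89, adjusted p = 0.00345) with Fkbp5, a cochaperone of steroid receptors 5.19 kb away (0.33, adjusted p = 0.000255), both named after their values were seen.

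Gm33104, Gm47662 and Gm26532, whose rise was needed for them to reach the 1 CPM rule, each lay near a coding gene that was higher too. Gm33104 lies 84.6 kb upstream of Ifngr1, the ligand-binding chain of the interferon-gamma receptor, and Gm47662 lies 1.5 kb upstream of Serpinb9, an inhibitor of granzyme B. Ifngr1 was at 63.9 ± 11.2 CPM in CON and 178 ± 19.9 CPM in CKO (1.48 on the log2 scale, adjusted p = 2.17e-06). Serpinb9 was at 43.7 ± 8.34 CPM in CON and 158 ± 7.34 CPM in CKO (1.86, adjusted p = 1.76e-07). Gm26532 faces the end of Zswim4 at 1.07 kb, which was also higher (0.59, adjusted p = 5.68e-05).

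Over all 169, the nearest protein-coding gene was tested for 141, at a median distance of 3.32 kb over the 169. Of these tested neighbours 51.1% were called, against 46.5% of all tested protein-coding genes and 42.3% of all tested genes. In 30 pairs both genes were called, of which 20 went the same way (6 higher and 14 lower) and 10 went opposite ways (8 with the lincRNA lower and the neighbour higher, 2 the reverse). Among the 20, Cd28, Thy1 and Setd1b are each the neighbour of more than 1 lincRNA, so these pairs are not all separate. The 10 opposite pairs each have a different neighbour. A further 14 called lincRNAs had a tested neighbour that was not called. Among the pairs that went the same way, 1810006J02Rik, Gm26532, Gm33104 and Gm47662 reached 1 CPM in CKO alone. Gm45155, Gm33994, 2310016D23Rik and Gm30373 reached it in CON alone, as did F730311O21Rik among the opposite pairs. These lincRNAs had to differ to enter, so the pair counts and the correlations below depend in part on the rule. Across the 141 lincRNAs, which share 134 different neighbours and the same libraries, the log2 fold changes of lincRNA and neighbour had a Pearson correlation of 0.228 and a Spearman correlation of 0.198, given as a description. For the 93 within 10 kb, these were 0.0867 and 0.255, and for those beyond 10 kb, 0.315 and 0.148.

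Orientation split the 30 pairs further. Of 9 divergent pairs, 7 went the same way, as did 3 of 3 pairs that overlap on opposite strands, of which Gm11110 and Gm17300 share exon bases with the neighbour. Divergent here means only that the 2 genes are transcribed away from each other, at any distance. Thy1 is the neighbour in more than 1 of those 7 pairs. Where the lincRNA lies downstream on the same strand, 3 of 8 went the same way and 5 did not, among them Pvt1 with Myc, Neat1 with Frmd8 (-0.29, adjusted p = 0.00244) and Gm11707 with Kpna2, an importin (0.27, adjusted p = 0.000268). Where it lies upstream on the same strand, 5 of 7 went the same way. These small counts include lincRNAs that reached 1 CPM in a single group, and they were not tested against each other.

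**Figure D4:**
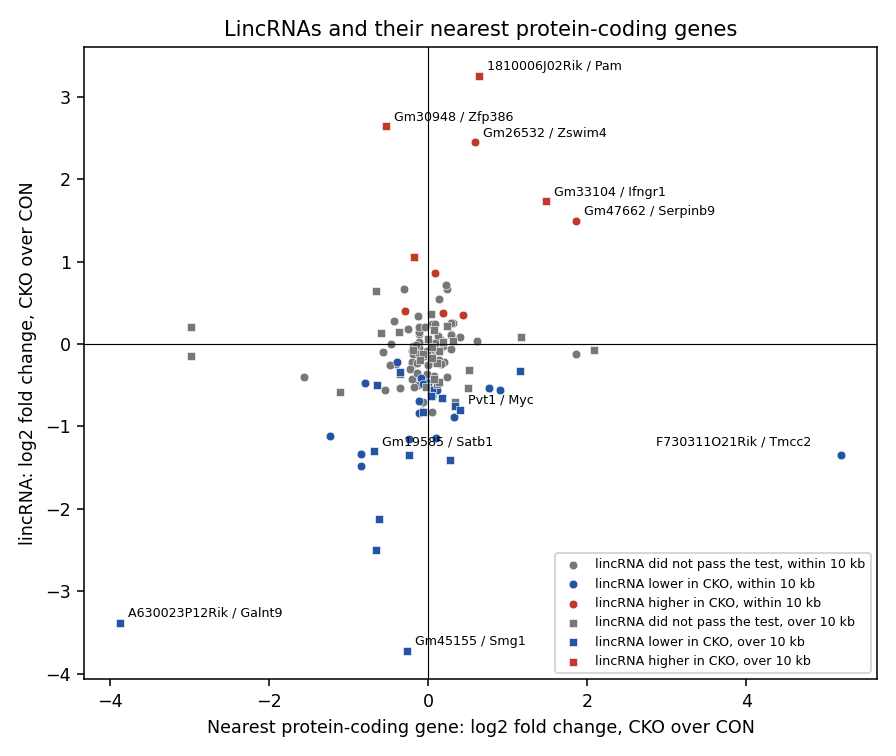
Each point is 1 of the 141 lincRNAs whose nearest protein-coding gene was tested, with the neighbour's log2 fold change, CKO over CON, on the horizontal axis and that of the lincRNA on the vertical axis; circles lie within 10 kb and squares beyond, coloured by the lincRNA's call. A630023P12Rik with Galnt9 sits at the lower left and F730311O21Rik with Tmcc2 at the far right, while most points lie near 0 on both axes.

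The widest opposite pair was F730311O21Rik (log2 fold change -1.35, SE 0.328, adjusted p = 0.00649) with Tmcc2, 6.69 kb away. Tmcc2 measured 0.443, 1.28 and 0.907 CPM in CON and 5.2, 41.5 and 46 CPM in CKO (5.19, adjusted p = 0.000432). Its level in the CKO libraries was low in replicate 1 and high in the others, as was the sum of red cell markers, at 310, 1860 and 1610 CPM; F730311O21Rik, at 0.735, 0.744 and 0.664 CPM there, was not. The part of red cell RNA in the level of Tmcc2 was not tested.

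Overlap with other genes limits some of these values, since it is not known here if the counting used strand. Gene bodies of 82 lincRNAs overlap another gene, 26 of them a coding gene, and 54 share exon bases with another gene, 17 of them with a coding gene (4 on the same strand and 13 on the opposite strand). Of the 55 called, 15 share exon bases with some gene and 3 with a coding gene: Gm11110 shares 192 bases with Tnfsf9, 9330175E14Rik 78 with Nlrc5 and Gm17300 19 with Rcc1. Among 24 genes of 300 or more exon bases that lie wholly under opposite-strand exons of a gene with at least 10000 reads, 19 had 0 reads in all libraries. The zeros cannot tell which setting was used, since counting without strand in HTSeq's usual mode also drops reads that fit both genes. The rest of the 24 had reads. The lincRNA Gm26916, with all 352 exon bases under opposite-strand exons of Dleu2, also had enough reads to be tested. Whether counting by strand or another annotation release gave these reads was not tested.

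Gm17300 also shares 705 of its exon bases, 46.2% of their length, with the opposite-strand Snhg3, which is listed at 0 reads in all 6 libraries. Rcc1, the exchange factor of Ran, rose with Gm17300 (0.44, adjusted p = 6.2e-05). On chromosome 5, 3 lincRNAs beside Setd1b share exon bases across strands: AI480526 shares 1525 bases with Gm38102 and 1622 with 4932422M17Rik. They had log2 fold changes of -0.69 (adjusted p = 0.000963), -0.56 (adjusted p = 0.0217) and -0.84 (adjusted p = 0.00587), and reads on their shared bases cannot be assigned with certainty. Gm38102 was lost without CON replicate 1, CKO replicate 2 or CKO replicate 3, and in DESeq2 (largest adjusted p = 0.114). Setd1b, a histone H3 lysine methyltransferase, was slightly lower (-0.12, adjusted p = 0.0454).

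Chromosome 5 held 22 of the lincRNAs, the most of any chromosome, and 10 of these fell and 0 rose by edgeR's test. Over all 169 lincRNAs, 25.4% were lower and 7.1% higher, and over all tested genes 20.7% and 21.6%. The 10 falls include AI480526, Gm38102 and 4932422M17Rik, which share exon bases and so are not fully separate. Coding genes on that chromosome were called higher in 178 and lower in 160 of 719 cases. 

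The 114 lincRNAs that did not pass the test include abundant ones measured with small error. Gm10076 measured 206, 214 and 203 CPM in CON and 185, 199 and 207 CPM in CKO, overlapping ranges with a log2 fold change of -0.07 (SE 0.0491, adjusted p = 0.249). AU020206 (0.13, SE 0.0691, adjusted p = 0.15) and AI504432 (0.12, SE 0.0501, adjusted p = 0.0847) also missed the threshold, and AI504432 passed the test only without CON replicate 1, at 0.16 (adjusted p = 0.0124).

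Gm42047, named after its values were seen, had the widest spread between control libraries of the 42 lincRNAs at 10 CPM or more. It measured 80.7, 101 and 165 CPM in CON and 189, 149 and 135 CPM in CKO, so the groups overlapped (log2 fold change 0.45, SE 0.207, adjusted p = 0.103). Its coefficient of variation in CON was 38%, beside a median of 8.12% over the 42. For the 72 lincRNAs of 1 to 3 CPM the median was 19.3% in CON and 22.7% in CKO, and the smallest change called among them was that of Gm12319 (log2 fold change -0.63, adjusted p = 0.0325). That call was lost in 4 of the 6 fits that left out 1 library, without CON replicate 2 or 3 or CKO replicate 1 or 3 (largest adjusted p = 0.172). No smaller change was called among lincRNAs of that level.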

How the data were processed

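RNA-seq libraries of CON and CKO cells were grouped by their titles, 3 against 3. The authors deposited raw counts per gene and library, with no normalization. Per the submitters' processing notes, STAR 2.7.3a, HTSeq 0.12.4 and the mm10 build were used. Which annotation release and strand setting they ran with is not given in the sources used here. Lines that name no gene were left out of library sizes and tests. HTSeq's usual mode drops reads that fit several genes, which lowers counts where genes overlap.

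GENCODE M21 (GRCm38) supplied biotypes and positions for 55141 of the 55401 genes, by gene identifier. Counts were tested with edgeR 4.0.16 in R 4.3.3 (filterByExpr, TMM, quasi-likelihood test, Benjamini-Hochberg adjustment over 13364 genes, threshold 0.05). Every adjusted p comes from this fit unless another is named. Printed CPM are TMM-scaled, errors are SD (n = 3), log2 fold changes are those of the fit and distances are between gene bodies. A prior count of 2 was used only in the log2 CPM that compared the deviations of same-numbered libraries. Alternatives were DESeq2 1.42.0, no TMM, no filter, a replicate block, each library left out, other CPM limits, overlap and neighbour rules, and a test against a fold change of 1.5 (glmTreat). The fit was tested on simulated data.

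Named were Satb1, the 10 lincRNAs of highest RPKM, the 12 largest rises and 12 largest falls called without overlap, those on the lncRNA lists, those beside the threshold and their neighbours. The lincRNAs, lists and this rule were chosen with earlier results of these data known. No 2 libraries were identical.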

Additional observations from a re-analysis of the deposited data

How the results depend on the processing

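Of the 55 called lincRNAs, 38 kept their call in all 10 refits (DESeq2, no TMM, no filter, replicate block and each library left out), and no call changed direction. Leaving out 1 library gave 9 to 13 lincRNAs higher and 34 to 44 lower, 14 to 18 pairs with the neighbour in the same direction and 7 to 10 in opposite directions, a median log2 fold change of -0.23 to -0.19, a Satb1 log2 fold change of -0.79 to -0.60 and a difference in the share of gene reads of -0.00483 to -0.00262 percentage points. DESeq2 called 10 higher and 36 lower. Without the lincRNAs that share exon bases with another gene, 7 were higher and 33 lower, and 5 pairs went opposite ways. Testing against a fold change of 1.5 left 4 higher and 14 lower. Within 10 kb, 11 pairs went the same way and 5 opposite ways. With replicate number as a block, 11 were higher and 42 lower, 16 pairs went the same way, the median was -0.21 and Satb1 measured -0.68; Gm28875 was lost (adjusted p = 0.0579). Same-numbered libraries did not deviate together (correlations 0.0215, -0.0125 and 0.0279). CON replicate 1 and CKO replicate 1 stood furthest from their groups; without both, chosen after seeing the data, 13 were higher and 42 lower. At 1 to 3 CPM, counts per library are low, and the median coefficient of variation was 19.3% in CON.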
